A study of Rattus norvegicus with 12 samples.

Results

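MiR-182 and miR-183 are neighboring miRs of sensory organs and sensory ganglia, and 2 of the 154 miR assays in the table of cycle thresholds carried their names. They were taken by assay name, mmu-miR-182 and mmu-miR-183, with no cut on a measured value. Earlier results of these data were known when they were chosen. MiR-96, which lies between both genes, has no row in the table and was not analysed here. All rats were adult male Sprague-Dawley animals, and all tissue was taken 23 days after surgery. In Sural-SNI (spared nerve injury that leaves the sural branch of the sciatic nerve intact) the common peroneal and tibial branches were tied and cut. In Tibial-SNI the common peroneal and sural branches were tied and cut, and the tibial branch was left intact. In Sham the sciatic nerve and its branches were laid open without being tied or cut. Each of the 12 arrays measured total RNA of an individual dorsal root ganglion (DRG), 4 per surgery group, of which 2 were L3-DRG and 2 were L4-DRG, numbered as replicate 1 and 2. The sources used here do not say which DRG came from the same rat, so every p-value measures the spread between these arrays. All rats were perfused with cold artificial cerebrospinal fluid before the DRG were removed, and both SNI groups were compared with the same 4 Sham arrays.

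MiRs are short RNAs that lower the translation and stability of the messenger RNAs they pair with, mainly through the seed near their 5′ end. The cluster that holds both is made as one primary transcript in hair cells, photoreceptors, olfactory neurons and DRG neurons, and it is best known for its part in the maturation and upkeep of these sensory cells. In a DRG the cell bodies of primary sensory neurons lie among satellite glia, Schwann cells, vessels and resident immune cells. L4-DRG sends many axons into the sciatic nerve, whereas those of L3-DRG run mainly in the femoral nerve and its saphenous branch.

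The rat sequences, taken from RefSeq (GRCr8), are shown to compare the seeds of the 3 miRs of the cluster. Each is written 5′ to 3′ with its seed, bases 2 to 8, in capitals.
rno-miR-182: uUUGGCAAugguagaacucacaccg
rno-miR-96-5p: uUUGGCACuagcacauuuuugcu
rno-miR-183-5p: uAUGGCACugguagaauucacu
Counted from the 5′ end of miR-182, its sequence and that of miR-183 are the same at 18 of the 22 positions compared, and the substitutions are U2A, A8C, C17U and A22U. The first pair of these, U2A and A8C, lies in the seed. The seed of miR-96 differs from that of miR-182 by A8C. From miR-96 to miR-183 the seed substitution is U2A. No other of the 693 mature rat sequences in the table held the seed of any of these 3 miRs. The letters UGGCA, read on the RNA strand, are in the seeds of 4 of the 693 (0.577%), which are miR-182, miR-183-5p, miR-96-5p and miR-221-5p. The hairpin of miR-182 is at chr4:59752246-59752307, that of miR-96 at chr4:59755841-59755946 and that of miR-183 at chr4:59756044-59756153, all on the minus strand. The genes thus lie within 3908 bases, with 3533 bases between the hairpins of miR-182 and miR-96 and 97 bases between those of miR-96 and miR-183. The assay name miR-183 gives no arm, and the 5p arm is shown. The assays carry mouse names, and the sequences they were built on are not given in the sources used here.

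The cards were read as Ct, the cycle at which a reaction crosses its threshold, so a lower Ct means more template and 1 cycle is 1 log2 unit if the product doubles in each cycle. Mean Ct over all miRs ranged from 27.2 to 30.5 among the arrays and averaged 29.9 in replicate 1 and 27.8 in replicate 2. Among the reference assays, U87 lay between 25.4 and 28.3 and snoRNA135 between 28.1 and 34.0, and their means were also lower in replicate 2. MammU6 lay between 16.7 and 18.7 and ran the other way, with means of 17.6 in replicate 1 and 18.5 in replicate 2. Levels and fold changes below are set against the mean of these 3 references unless another reference is named.

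Both miRs were measured early in the reaction in every array. The Ct of miR-182 lay between 22.3 and 25.1 with a mean of 23.5, the 5th lowest mean Ct of the 154 miRs. The Ct of miR-183 lay between 26.5 and 29.2 with a mean of 27.6, the 53rd lowest, against a median of 29.2 over all miRs. Neither was near the last of the 40 cycles in any array. Since every assay has its own efficiency, the gap between both miRs is not a ratio of molecules. In whole ganglia, fewer cells of a type and less RNA per cell cannot be told apart.

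The level of each miR is given as −ΔCt, the mean Ct of the references minus the Ct of the miR, in log2 units. In Sham, miR-182 stood at 2.02 and 1.85 in L3-DRG and at 1.79 and 1.81 in L4-DRG (replicate 1 first, as in all pairs of values below). In Sural-SNI it stood at 1.90 and 1.62 in L3-DRG and at 1.33 and 0.94 in L4-DRG. In Tibial-SNI it stood at 2.53 and 1.45 in L3-DRG and at 1.32 and 1.64 in L4-DRG. The 4 Sham arrays were close to each other, while the highest value of all and the widest pair were the L3-DRG of Tibial-SNI. For miR-183 the Sham levels were −2.44 and −2.81 in L3-DRG and −2.06 and −2.38 in L4-DRG. In Sural-SNI they were −1.77 and −1.93 in L3-DRG and −2.56 and −3.25 in L4-DRG. In Tibial-SNI they were −1.99 and −2.47 in L3-DRG and −2.79 and −2.89 in L4-DRG. Sham had its higher miR-183 levels in L4-DRG, whereas both SNI groups had theirs in L3-DRG. Over the 12 arrays the SD of −ΔCt was 0.40 for miR-182 and 0.45 for miR-183, the 22nd and 31st smallest of the 154 miRs, whose median SD was 0.74.

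**Figure D1:**
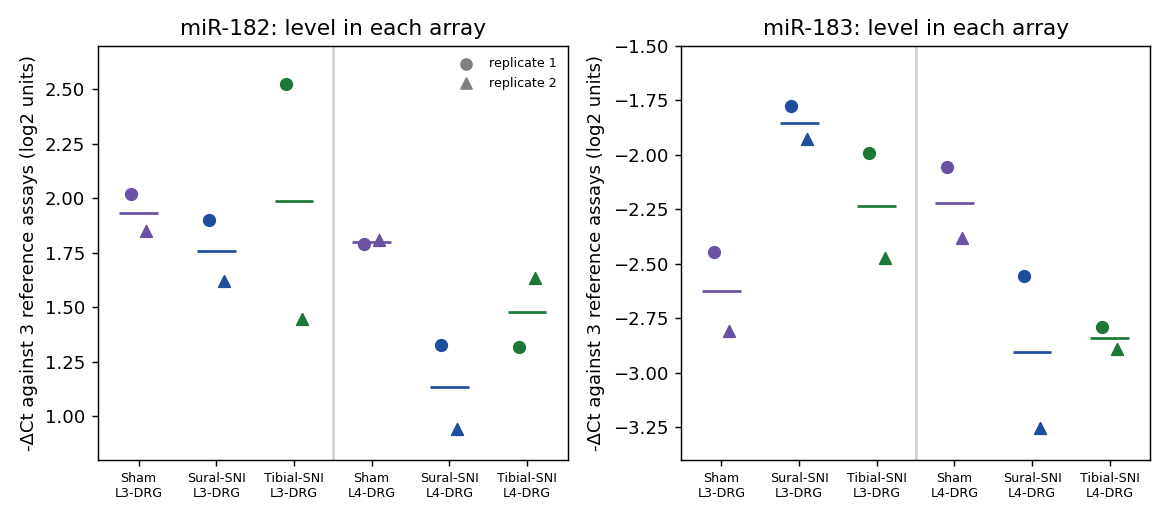
Level of miR-182 (left) and miR-183 (right) in each of the 12 arrays as −ΔCt (log2 units, both axes with the same span), by surgery group and DRG level; circles are replicate 1, triangles replicate 2 and lines the mean of each pair. In L4-DRG every SNI point of either miR lies below both Sham points, and in L3-DRG miR-183 is highest in Sural-SNI.

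To ask how both SNI variants differ, each SNI array was set against the Sham array of its level and replicate number, which gives log2(fold change). The log2(fold change) of miR-182 was −0.12 and −0.23 in L3-DRG and −0.47 and −0.87 in L4-DRG of Sural-SNI, a mean of −0.42 ± 0.33 (SD, n = 4). In Tibial-SNI it was 0.50 and −0.40 in L3-DRG and −0.47 and −0.17 in L4-DRG, a mean of −0.14 ± 0.45 (SD, n = 4). Thus miR-182 was below its Sham array in 4 of 4 Sural-SNI arrays, as were 4.55% of all miRs, and in 3 of 4 Tibial-SNI arrays. The difference, Tibial-SNI minus Sural-SNI, was 0.29 (SE 0.32, 95% interval −0.44 to 1.01), with an adjusted p of 0.995 in limma. The groups overlapped. Without the L3-DRG of Tibial-SNI replicate 1 the difference was 0.0722, and without the Sham L3-DRG of replicate 2 it was 0.44. For miR-183 the log2(fold change) was 0.67 and 0.88 in L3-DRG and −0.50 and −0.87 in L4-DRG of Sural-SNI, a mean of 0.05 ± 0.86 (SD, n = 4). In Tibial-SNI it was 0.45 and 0.34 in L3-DRG and −0.73 and −0.51 in L4-DRG, a mean of −0.11 ± 0.59 (SD, n = 4). The Tibial-SNI values lay inside the range of the Sural-SNI values, and the difference was −0.16 (SE 0.49, 95% interval −1.27 to 0.96), with an adjusted p of 0.995 in limma. In this comparison 0.649% of the 154 miRs passed an adjusted p of 0.05, and neither miR-182 nor miR-183 was among them. This fit held neither the DRG level nor the replicate number, and its interval leaves room for about 1 log2 unit either way for miR-183. With the replicate number of each level as a block, the interval was −0.72 to 0.40 for miR-183 and −0.31 to 0.88 for miR-182. The test thus does not show that both variants act alike.

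The next comparison was of each SNI group with Sham, in a fit of −ΔCt to the 12 arrays that also held the DRG level. MiR-182 averaged 1.87 ± 0.11 (SD, n = 4) in Sham and 1.45 ± 0.41 (SD, n = 4) in Sural-SNI. Its difference, Sural-SNI minus Sham, was −0.42 (SE 0.31, 95% interval −1.10 to 0.26). Tibial-SNI averaged 1.73 ± 0.54 (SD, n = 4), which is −0.14 from Sham (SE 0.31, 95% interval −0.81 to 0.54). MiR-183 averaged −2.42 ± 0.31 (SD, n = 4) in Sham and −2.38 ± 0.67 (SD, n = 4) in Sural-SNI. Its difference, Sural-SNI minus Sham, was 0.05 (SE 0.36, 95% interval −0.75 to 0.84). Tibial-SNI averaged −2.54 ± 0.40 (SD, n = 4), which is −0.11 from Sham (SE 0.36, 95% interval −0.91 to 0.68). In this fit the 95% interval of each of these differences held 0. No miR of the 154 passed an adjusted p of 0.05 in limma in either comparison. At an unadjusted p of 0.05 the counts were 0 for Sural-SNI and 1 for Tibial-SNI, where evenly spread p-values would give 7.7. This fit left the difference between replicate numbers in the spread. With the replicate number of each level as a block the counts were 10 and 15, without miR-182 or miR-183, and 0 passed an adjusted p of 0.05. With the mean Ct of all miRs as reference as well, Sural-SNI minus Sham for miR-182 was −0.57 (95% interval −1.03 to −0.12). Its adjusted p was 0.910 in limma, and 3.9% of all miRs passed an unadjusted p of 0.05. Tibial-SNI minus Sham was then −0.37 for miR-182 (95% interval −0.83 to 0.09). The miR-183 means hide a split by DRG level.

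In L3-DRG miR-183 was higher in each SNI array than in the Sham array of its number, and in L4-DRG it was lower. The 4 L3-DRG arrays were 1.59, 1.84, 1.37 and 1.26 times their Sham array (Sural-SNI first), a mean log2(fold change) of 0.58 ± 0.24 (SD, n = 4). The 4 L4-DRG arrays were 0.708, 0.547, 0.603 and 0.703 times their Sham array, a mean of −0.65 ± 0.18 (SD, n = 4). The lowest L3-DRG value was 0.34 and the highest L4-DRG value −0.50, so the levels did not overlap, as for 17.5% of all miRs. The stricter split, all 4 above Sham in L3-DRG and all 4 below in L4-DRG, was shown by 10 of the 154 miRs (6.49%), and the opposite split by 0. The other 9 were miR-9, miR-29c, miR-30a, miR-34a, miR-127, miR-204, miR-218, miR-434-3p and miR-744, named here because they share the pattern. The 4 values of a level rest on only 2 Sham arrays, so they are not independent of each other. The median log2(fold change) of all miRs was itself 0.36 in L3-DRG and −0.02 in L4-DRG. By absolute size of the mean, miR-183 ranked 59th of the 154 miRs in L3-DRG and 22nd in L4-DRG. With the mean Ct of all miRs as reference it ranked 103rd and 22nd.

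**Figure D2:**
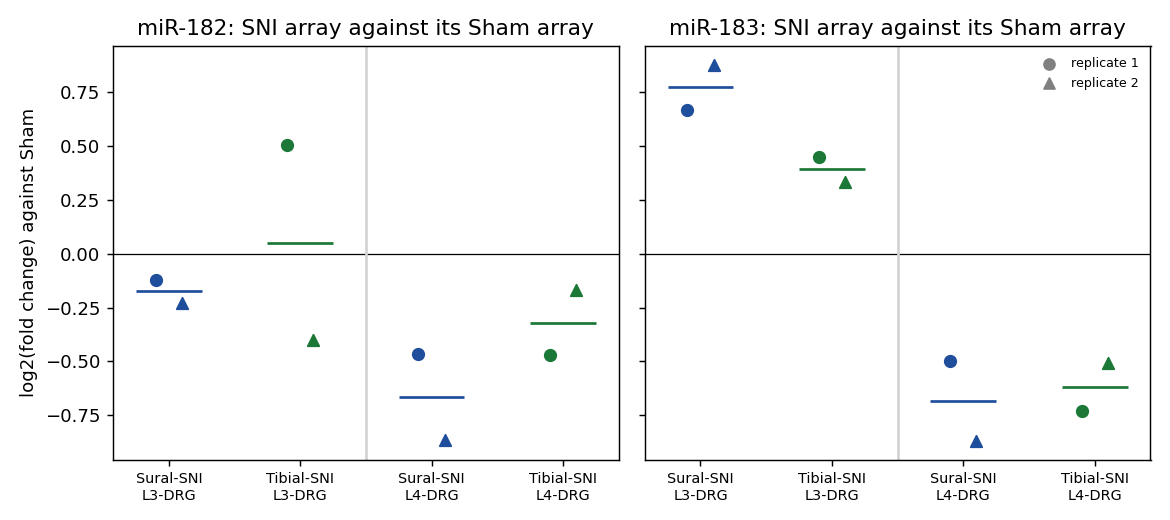
Log2(fold change) of miR-182 (left) and miR-183 (right) in each SNI array against the Sham array of its level and replicate number; circles are replicate 1, triangles replicate 2 and lines the mean of each pair, and the horizontal line at 0 is Sham. The 4 L3-DRG points of miR-183 sit between 0.34 and 0.88 and the 4 L4-DRG points between −0.87 and −0.50.

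MiR-182 shared the L4-DRG side of this split and not the L3-DRG side. Its mean log2(fold change) was −0.06 ± 0.40 (SD, n = 4) in L3-DRG, where 1 of 4 arrays was above 0, and −0.49 ± 0.29 (SD, n = 4) in L4-DRG, where 4 of 4 were below 0, as were 14.9% of all miRs. In −ΔCt, every SNI L4-DRG lay below both Sham L4-DRG for miR-182 and for miR-183. That held for 4 of the 154 miRs (2.6%), the others being miR-217 and miR-382, and the opposite for 1.3%. This pattern was looked for after the values had been seen, and the groups hold 4 and 2 arrays. Neither miR showed it when the mean Ct of all miRs served as reference, since the Sham L4-DRG then lay further apart.

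When both SNI groups were averaged and compared with Sham within a level, limma gave no difference that passed. Within L4-DRG the difference was −0.65 for miR-183 (SE 0.38, 95% interval −1.52 to 0.22) and −0.49 for miR-182 (SE 0.41, 95% interval −1.43 to 0.45), each with an adjusted p of 0.999. Within L3-DRG it was 0.58 for miR-183 (SE 0.38, 95% interval −0.29 to 1.45) and −0.06 for miR-182 (SE 0.41, 95% interval −1.003 to 0.879), each with an adjusted p of 0.988. With the replicate number of each level as a block, the miR-183 intervals were −1.20 to −0.10 in L4-DRG and 0.04 to 1.13 in L3-DRG. Their adjusted p in limma was 0.908 and 0.269. In that fit 3.9% of all miRs passed an unadjusted p of 0.05 within L4-DRG, and 16.9% within L3-DRG, where all were higher in SNI. MiR-183 had the 2nd smallest p within L4-DRG and the 22nd smallest within L3-DRG. With the mean Ct of all miRs as reference as well, the miR-183 intervals were −1.20 to −0.09 and −0.37 to 0.75. The shares of all miRs were then 4.55% and 3.25%. Whether the injury response differed between levels was tested as an interaction of surgery and level. For Sural-SNI against Sham the L4-DRG response of miR-183 was 1.46 below its L3-DRG response (difference −1.46, SE 0.62, 95% interval −2.88 to −0.04). This had the smallest unadjusted p of the 154 miRs, 0.045, and an adjusted p of 0.999 in limma. For Tibial-SNI against Sham the difference was −1.01 (SE 0.62, 95% interval −2.43 to 0.41), with an adjusted p of 1.00 in limma. The same Sham arrays enter both. MiR-182 gave −0.49 and −0.37, and the median over all miRs was −0.35 and −0.47. No miR passed an adjusted p of 0.05 in limma in either interaction. At an unadjusted p of 0.05, 0.649% of the miRs passed for Sural-SNI, miR-183 alone, and 1.3% for Tibial-SNI, without miR-183. With the replicate number of each level as a block, 7.79% and 11% passed. MiR-183 was then among them in both, with an unadjusted p of 0.00685 (the 3rd smallest) and an adjusted p of 0.352 in limma for Sural-SNI, and 0.0321 and 0.377 for Tibial-SNI.

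**Figure D3:**
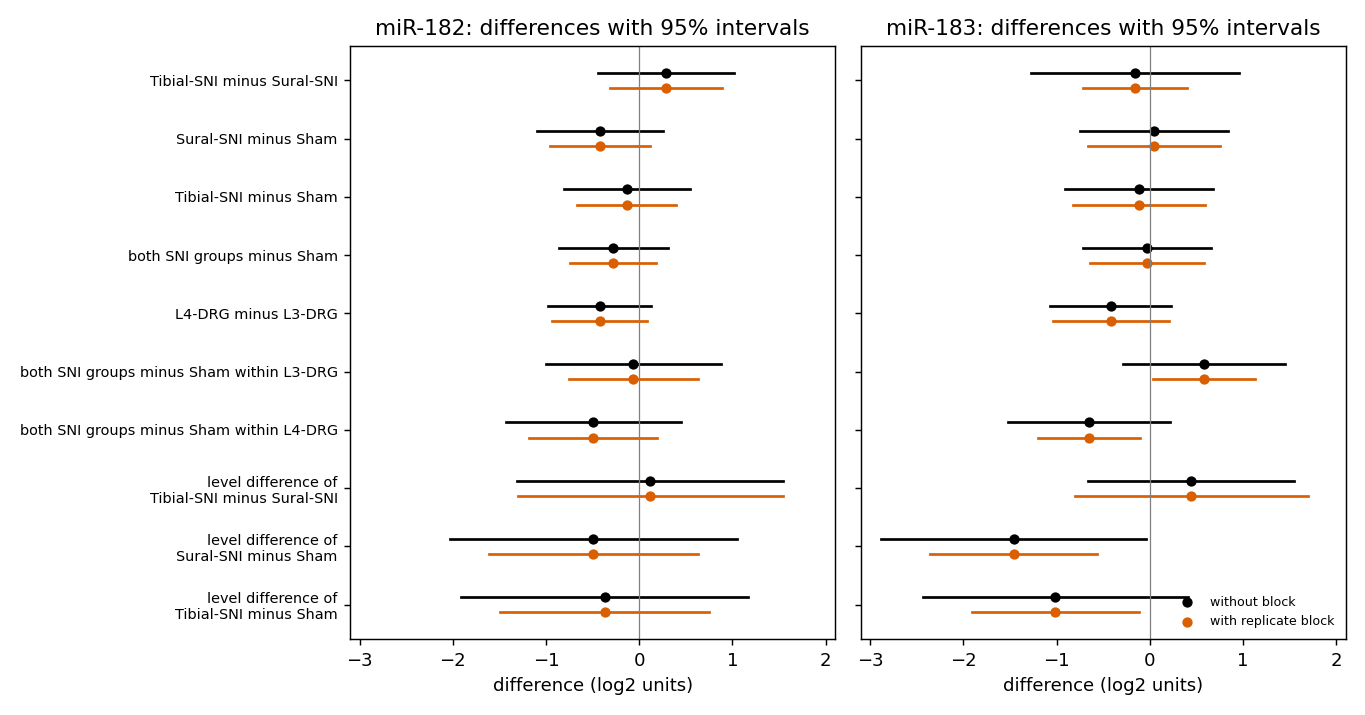
Differences of miR-182 (left) and miR-183 (right) in log2 units (points) with 95% intervals (lines) from limma, black without and orange with the replicate number of each level as a block; a level difference is L4-DRG minus L3-DRG. For miR-183 the interval of the level difference of Sural-SNI minus Sham ends just below 0 without the block. With the block, the miR-183 intervals within L3-DRG, within L4-DRG and of both level differences against Sham leave out 0. No difference shown passed an adjusted p of 0.05.

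The size of the level difference of miR-183 depended on the reference. With the mean Ct of the 154 miRs taken as reference in place of the 3 small RNAs, the L4-DRG mean stayed at −0.65 with 4 of 4 arrays below 0. The L3-DRG mean was then 0.19, with 3 of 4 arrays above 0 and the Tibial-SNI L3-DRG of replicate 1 at −0.16. The distance between levels was −1.24 with the 3 references, where the median over all miRs was −0.43, and −0.84 with the mean of all miRs, where that median was −0.03. The interaction of miR-183 for Sural-SNI was then −1.11 with an unadjusted p of 0.292, the 15th smallest, and an adjusted p of 1.00 in limma. With the mean of all miRs, miR-182 was below its Sham array in 8 of 8 SNI arrays, from −0.80 to −0.09, which held for 2 of the 154 miRs (1.3%), the other being miR-217. Its L3-DRG mean was then −0.46 and its L4-DRG mean −0.49. With the 3 references, 0 miRs did so in all 8. Which reference lies nearer to the true amount of RNA was not tested.

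**Figure D4:**
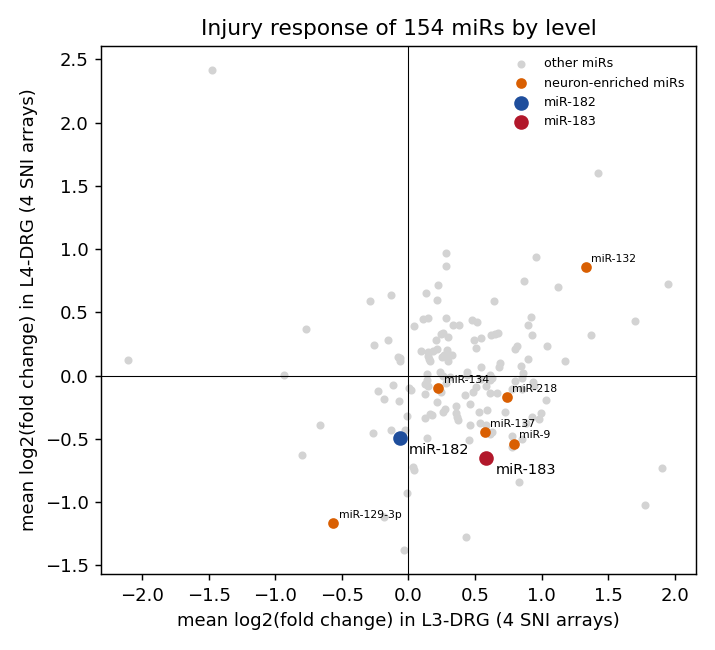
Mean log2(fold change) of each of the 154 miRs over the 4 SNI L3-DRG (x axis) and the 4 SNI L4-DRG (y axis) against Sham, with miR-182 in blue, miR-183 in red, neuron-enriched miRs in orange and all others in grey. MiR-183 lies at 0.58 and −0.65, and miR-182 at −0.06 and −0.49.

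Averaged over surgery groups, the mean of both miRs was lower in L4-DRG than in L3-DRG, by differences whose 95% intervals held 0. MiR-182 averaged 1.89 ± 0.37 (SD, n = 6) in L3-DRG and 1.47 ± 0.34 (SD, n = 6) in L4-DRG, and miR-183 averaged −2.24 ± 0.40 (SD, n = 6) and −2.65 ± 0.42 (SD, n = 6). L4-DRG minus L3-DRG was −0.42 for miR-182 (SE 0.25, 95% interval −0.98 to 0.13) and −0.42 for miR-183 (SE 0.29, 95% interval −1.07 to 0.23), each with an adjusted p of 0.987 in limma. In Sham alone L4-DRG was below L3-DRG for miR-182, with means of 1.80 and 1.94, and above it for miR-183, with means of −2.22 and −2.63.

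The Ct of miR-183 minus that of miR-182 within an array holds no reference assay, so it compares both miRs of the cluster directly. In Sham it was 4.47 and 4.66 cycles in L3-DRG and 3.85 and 4.19 in L4-DRG. In Sural-SNI it was 3.67 and 3.55 in L3-DRG and 3.88 and 4.19 in L4-DRG. In Tibial-SNI it was 4.52 and 3.92 in L3-DRG and 4.11 and 4.53 in L4-DRG. The smallest gaps of all were those of the Sural-SNI L3-DRG, where miR-183 was highest relative to miR-182, and the largest was 1 of the Sham L3-DRG, close to the highest of Tibial-SNI. Sural-SNI averaged 3.82 ± 0.28 (SD, n = 4), Sham 4.29 ± 0.35 (SD, n = 4) and Tibial-SNI 4.27 ± 0.30 (SD, n = 4). Tibial-SNI exceeded Sural-SNI by 0.44 cycles, in 4 of 4 pairs of level and number, with a two-sided exact permutation p of 0.114. Sural-SNI minus Sham was −0.47 cycles, with a two-sided exact permutation p of 0.143, and was below 0 in 2 of 4 pairs, both of L3-DRG. Tibial-SNI minus Sham was −0.02 cycles, with a two-sided exact permutation p of 0.886. The smallest p that 4 arrays against 4 allow is 0.0286. L4-DRG minus L3-DRG was −0.01 cycles, with a two-sided exact permutation p of 0.976. These are 4 of the 5 such comparisons computed, the other being both SNI groups minus Sham at −0.24 with an exact permutation p of 0.291, and none was below 0.05 before adjustment.

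**Figure D5:**
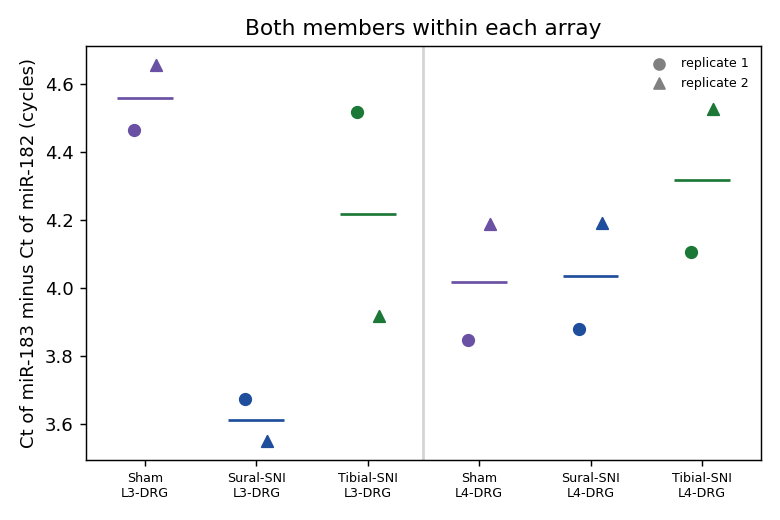
Ct of miR-183 minus Ct of miR-182 (cycles) in each of the 12 arrays by surgery group and DRG level; circles are replicate 1, triangles replicate 2 and lines the mean of each pair. The Sural-SNI L3-DRG lie lowest, at 3.67 and 3.55, and the Sham L3-DRG average 4.56.

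The miRs whose −ΔCt followed each member most closely were ranked by Pearson r over the 12 arrays, after the mean of the 3 arrays of each level and number had been subtracted. All points share their array's references, so r is given as a description. For miR-182 the highest of 153 were miR-217 (r = 0.87), miR-384-5p (r = 0.82), miR-744 (r = 0.66), miR-434-3p (r = 0.65) and miR-383 (r = 0.62). For miR-183 they were miR-127 (r = 0.82), miR-34a (r = 0.78), miR-29c (r = 0.74), miR-204 (r = 0.74) and miR-376c (r = 0.74). MiR-182 and miR-183 had r = 0.45 with each other, so miR-183 was 22nd in the order of miR-182 and miR-182 was 36th in that of miR-183. With the mean over all miRs as reference it was 0.42. The order rests on the subtraction. Without it miR-127, miR-34a and miR-29c had r of −0.09, −0.12 and 0.09 with miR-183, while miR-182 and miR-183 had r = 0.64, which put miR-183 6th for miR-182 and miR-182 3rd for miR-183. MiR-384-5p was then 1st for both, with r = 0.84 for miR-182 and 0.75 for miR-183. MiR-384-5p is shown to set its seed against that of miR-182 above.
rno-miR-384-5p: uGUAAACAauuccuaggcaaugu
Among the 693 mature rat sequences searched, its seed is also that of miR-30a-5p, miR-30c-5p and miR-30e-5p. MiR-384-5p shares no seed with miR-182 or miR-183.

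Markers of the cell types of a DRG were set beside these values, first the miRs enriched in neurons. Of a list of 12, 6 have a row, miR-9, miR-129-3p, miR-132, miR-134, miR-137 and miR-218. Their median log2(fold change) was 0.66 in L3-DRG, with 5 of 6 above 0, as were 83.1% of all miRs. It was −0.31 in L4-DRG, with 1 of 6 above 0 against 48.1% of all miRs. MiR-9, an miR of neuronal differentiation, averaged 0.79 in L3-DRG and −0.54 in L4-DRG, and miR-218, known from motor neurons, averaged 0.74 and −0.17. MiR-132, which is induced by neuronal activity, averaged 1.33 and 0.86, above 0 at both levels, and miR-129-3p averaged −0.56 and −1.17, below 0 at both. MiR-137 averaged 0.57 and −0.45, and miR-134 averaged 0.22 and −0.10. MiR-9 and miR-218, 2 of 6, showed the full split of miR-183, as did 10 of all 154 miRs (6.49%). So did miR-204, 1 of the 2 glial miRs with a row, and 0 in each further list. In limma without the block, 0 of the 6 neuron-enriched miRs passed an unadjusted p of 0.05 in any comparison. The share over all miRs was then between 0% and 2.6%. Among the other lists some passed only in Tibial-SNI minus Sural-SNI, where the share over all miRs was 2.6%. These were 2 of 4 miRs of smooth muscle and fibroblasts and 1 of 4 skeletal muscle assays, all higher in Tibial-SNI, and 0 passed an adjusted p of 0.05. The lists were not tested with the block. Glial miRs, 2 of 4 with a row (miR-204 and miR-338-3p), had medians of 0.45 in L3-DRG and −0.33 in L4-DRG. Leukocyte miRs, 5 of 6 with a row, had medians of 0.29 and 0.24. Those of endothelium (2 of 2) had medians of 0.27 and 0.07. Those of smooth muscle and fibroblasts (4 of 4) had 0.17 and 0.34. Skeletal muscle miRs, 3 of 4 with a row, had −0.11 and 0.12, and the 1 red blood cell miR of 3 with a row had 0.15 and 0.45. The summed level of the neuron-enriched miRs, the log2 of their added 2 to the power of −ΔCt, lay between −0.20 and 1.27 in Sham, between 0.02 and 1.18 in Sural-SNI and between 0.02 and 0.97 in Tibial-SNI, so the groups overlapped. The part of these lists in the level difference of miR-183 was not tested.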

How the data were processed

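The authors amplified each TaqMan Rodent Array MicroRNA Card A (version 2) over 40 cycles, set no Ct limit, and deposited a table of Ct values, a log-scale measure without normalization, and a table of fold changes, a linear ratio against Sham computed from ΔCt against MammU6, snoRNA135 and U87. The submitters' processing notes name ExpressionSuite 1.0.3. Of the 160 wells 6 are references (4 of MammU6, averaged first) and 154 are miRs. The 4 Sham columns of fold changes are empty and were not used. Ct holds no count of molecules, so no counting interval can be given, and the number of arrays limits the precision.

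−ΔCt and log2(fold change) were recomputed from Ct against the mean of the 3 references. Setting each SNI array against the Sham array of its level and replicate number matched 1219 of the 1232 fold changes the authors deposited (98.9%) to within 0.01 log2 units, and all of those of miR-182 and miR-183 to within 0.001. All fits used limma 3.58.1 (lmFit and eBayes) in R 4.3.3 on all 154 miRs, two-sided, with Benjamini-Hochberg adjustment over them and a threshold of 0.05. Tibial-SNI and Sural-SNI were compared on the 8 values of log2(fold change), and all comparisons with Sham and between levels on −ΔCt of 12 arrays. Exact permutation tests used scipy 1.17.1 in Python 3.11.15, and plots matplotlib 3.10.9. The scripts were tested on simulated data.

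The replicate numbers of the labels were taken to pair the arrays. Deviations from the surgery group means correlated between arrays of the same level and number (r from 0.46 to 0.81, 12 pairs). They ran opposite between numbers (r from −0.79 to −0.51, 24 pairs), which follows in part from subtracting each group mean. Arrays of the same number and different level were not compared. The check cannot tell a shift of a whole replicate number from pairing within it. The named miRs were both members, the 5 most alike to each by r, the references, the marker lists and miRs sharing a seed, and further names are marked as chosen for their pattern. The members, lists and tests were chosen with earlier results of these data known. The comparisons of both SNI groups together by level were added after the values had been seen. Alternatives were single references, the mean of all miRs as reference, Ct limits of 35 and 32, a variance trend, the replicate block, the methods' t-test and leaving out each array. Sequences were matched by miR name to RefSeq (GRCr8), and miR-217 is named only.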

Additional observations from a re-analysis of the deposited data

Results flagged for a closer look

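The mean log2(fold change) of miR-183 was 0.584 in L3-DRG and −0.652 in L4-DRG, and was picked out because all 4 SNI arrays of one level lay above Sham and all 4 of the other below. The test of this difference between levels, with both SNI groups against Sham, gave −1.24 (SE 0.54, 95% interval −2.47 to −0.01) with an adjusted p of 0.995 in limma. Without single arrays the difference ranged from −1.42 to −1.05. Its adjusted p over the 10 other settings was between 0.285 and 0.999. No array stood apart within the 17 groups of 4 values that were examined.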

How the results depend on the processing

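Of 27 results, 557 values were obtained under alternatives, of which 518 kept their direction and side of the threshold and 39 changed sign; none crossed an adjusted p of 0.05, and the lowest adjusted p of either miR was 0.269. With the replicate block no call of miR-182 or miR-183 changed. For the level difference of miR-183 in both SNI groups the block left −1.24 and gave an adjusted p of 0.285 in limma. With MammU6 alone as reference, the level difference of Tibial-SNI minus Sural-SNI for miR-182 was −0.15 and its L3-DRG response 0.00494. With U87 alone that L3-DRG response was 0.00275 and both SNI groups minus Sham for miR-183 was 0.0154. With snoRNA135 alone, Sural-SNI minus Sham for miR-183 was −0.0250. With the mean of all miRs as reference, with or without the block, the level difference of Tibial-SNI minus Sham for miR-182 was 0.0775 and Sural-SNI minus Sham for miR-183 was −0.11. The cause was not tested.

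Without single arrays, signs changed for miR-182 in Tibial-SNI minus Sham (−0.353 to 0.0512), in the level differences of Tibial-SNI minus Sural-SNI (−0.33 to 0.57) and Tibial-SNI minus Sham (−0.91 to 0.17) and in the L3-DRG response (−0.33 to 0.21). They changed for miR-183 in Tibial-SNI minus Sural-SNI (−0.46 to 0.12), Sural-SNI minus Sham (−0.18 to 0.29), Tibial-SNI minus Sham (−0.34 to 0.10) and both SNI groups minus Sham (−0.26 to 0.18). The gap in Ct between both miRs changed sign in Tibial-SNI minus Sham (−0.17 to 0.10) and in L4-DRG minus L3-DRG (−0.12 to 0.10). Where a Sham array was left out of Tibial-SNI minus Sural-SNI, both SNI arrays set against it were left out too.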
